A study of Mus musculus with 12 samples.

Results

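The 10 genes described here encode proteins of the stromal extracellular matrix and were measured by RNA-Seq in cultures of bone marrow–derived macrophages (BMDMs). They are the collagen chain genes *Col1a1*, *Col1a2*, *Col3a1*, *Col5a2*, and *Col6a3*, the small proteoglycan genes *Dcn* and *Bgn*, the matricellular genes *Sparc* and *Postn*, and the crosslinking enzyme gene *Lox*. They were selected on their levels in these same libraries, because they differed together between runs of consecutive library numbers, and their run levels are therefore given as a description without a test. All 10 were found among the 43626 genes of the count files, and all 10 were among the 14308 genes with enough reads to be tested. BMDMs are macrophages grown in culture from precursor cells of mouse bone marrow. The study compared quiescent BMDMs in PBS with BMDMs given the milk sugar 3′-sialyllactose (3′SL, 100 μg/mL), the bacterial endotoxin LPS (10 ng/mL), or both (LPS + 3′SL), each for 6 hours, to ask how 3′SL alters the response to LPS. There were 12 libraries, 3 per condition, and the library labels write HMO for 3′SL. The labels number the libraries from 1 to 12 with the conditions always in the same sequence (PBS first, then 3′SL, LPS, and the combination), so that each of the 3 runs of 4 consecutive numbers (1 to 4, 5 to 8, and 9 to 12) held 1 library of every condition. They do not say what a run stands for, and they give neither mouse strain, age, nor culture for a library. The labels name macrophage as the cell type, and the cultures carry no genetic change in the labels. The treatment field of the labels describes injections of mice, so the doses and hours are those of the study's methods.

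Fibrillar collagen is built from the chains encoded by *Col1a1*, *Col1a2*, *Col3a1*, and *Col5a2*, which assemble into triple helices inside fibroblasts, osteoblasts, and related stromal cells, and are secreted, trimmed, and joined into fibrils. Decorin and biglycan bind to these fibrils, SPARC and periostin tie collagen to cells and to other matrix proteins, and lysyl oxidase crosslinks collagen and elastin. Macrophages digest and take up matrix and are not its main makers, whereas the adherent cells of a marrow preparation also include stromal cells that make all of these proteins.

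Between 20411741 and 26851890 reads were counted on genes per library (median 23375851). Levels are given as CPM (counts per 1000000 counts), with each library's size scaled by its TMM factor (edgeR's trimmed mean of M values), and these factors lay between 0.70 and 1.30. After condition means were removed, the log2 levels of all tested genes correlated within runs (mean r = 0.596, lowest 0.449). The mean r between runs was −0.346. Removing a mean taken over 1 library of each run pushes this value below 0, so nothing is read from it. The biological coefficient of variation was 0.31 without and 0.133 with the run as a block in the model. The labelled cell type held in all 12 libraries, with the 12 macrophage markers summing to 19520 to 32000 CPM and *Lyz2*, *Csf1r*, *Adgre1*, and *Cd68* leading them.

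*Col1a1* lies on chromosome 11 at 94936224 to 94953042 and *Sparc* on the same chromosome at 55394500 to 55423183, in the GENCODE M21 annotation of GRCm38. *Col1a2* was annotated on chromosome 6 (4504814 to 4541544), *Dcn* on chromosome 10 (97479609 to 97518143), *Bgn* on the X chromosome (73483602 to 73495933), and *Postn* on chromosome 3 (54361109 to 54391037). *Col3a1* (45311538 to 45349706) and *Col5a2* (45374321 to 45503282) lie close together on opposite strands of chromosome 1, and *Col6a3* is on that chromosome at 90765923 to 90843971. An annotated miRNA gene lies within *Col3a1* and an antisense gene overlaps *Lox*, and neither was among the counted genes. Whether the counting used the strand is not given in the sources used here, so reads from *Lox* and from its antisense partner cannot be told apart.

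Because the 10 genes moved together, the 250 bases before the start of the transcript were read from the RefSeq promoter table of GRCm38.p6. Promoters of 6 of the 10 were used, with 7 start sites, none of which overlapped an annotated exon upstream. The starts are those of RefSeq and can differ from the gene ends of GENCODE M21 given above. The windows of *Col1a2* and *Sparc* lie within the GENCODE genes, and 1 of the *Postn* windows lies well before its gene. Those of *Col1a1*, *Col5a2*, *Dcn*, and *Lox* were not used here. Each promoter below is written 5′ to 3′ on the strand of its gene, and the capitals mark a match to CCAAT, the letters bound by the CCAAT-binding factor of collagen promoters, or to TATAAA, the letters of a TATA box. *Col1a2* (chr6:4505368-4505617, plus strand), *Col3a1* (chr1:45311288-45311537, plus strand), *Postn* (chr3:54360857-54361106, plus strand), and *Bgn* (chrX:73483351-73483600, plus strand) are shown, the first 3 for their matches and *Bgn* for having none.
Col1a2: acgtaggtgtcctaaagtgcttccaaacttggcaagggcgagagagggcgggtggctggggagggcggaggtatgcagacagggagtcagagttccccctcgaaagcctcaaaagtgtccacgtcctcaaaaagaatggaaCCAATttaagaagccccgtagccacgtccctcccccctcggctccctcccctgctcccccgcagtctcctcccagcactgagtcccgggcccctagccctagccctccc
Col3a1: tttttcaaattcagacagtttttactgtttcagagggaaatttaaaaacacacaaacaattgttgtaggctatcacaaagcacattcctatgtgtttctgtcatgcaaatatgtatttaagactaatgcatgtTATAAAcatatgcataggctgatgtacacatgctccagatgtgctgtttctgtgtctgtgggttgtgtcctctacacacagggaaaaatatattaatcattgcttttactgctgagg
Postn: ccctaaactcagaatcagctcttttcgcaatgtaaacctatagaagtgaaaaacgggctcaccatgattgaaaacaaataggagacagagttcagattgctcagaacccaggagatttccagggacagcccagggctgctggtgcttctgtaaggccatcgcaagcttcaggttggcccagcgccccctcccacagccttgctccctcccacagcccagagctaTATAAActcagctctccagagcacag
Bgn: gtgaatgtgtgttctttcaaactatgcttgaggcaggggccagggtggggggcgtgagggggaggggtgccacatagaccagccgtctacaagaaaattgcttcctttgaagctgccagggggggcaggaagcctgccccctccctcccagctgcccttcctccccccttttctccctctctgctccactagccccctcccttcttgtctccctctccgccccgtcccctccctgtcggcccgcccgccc
The 1 match to CCAAT was in *Col1a2*, 109 to 105 bases before the RefSeq start. Matches to TATAAA were found in *Col3a1*, 117 to 112 bases before the start, and in *Postn*, 26 to 21 bases before it. Both strands were searched, the motifs do not overlap each other, and TGANTCA, the AP-1 letters, was also searched and had no match in the 7 windows. Among 32851 promoters of the same length, 33.8% held CCAAT, 12.4% TATAAA, and 6.75% TGANTCA. No motif searched was shared by these 6 genes, and a missing match says only that these letters are not in this window.

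The mRNA levels of the 10 genes followed the run of library numbers far more than the condition. The first run had the highest levels, the second the lowest, and the third lay between. Summed over the 10 genes, the levels in the first run were 975.7 CPM in PBS, 1064 in 3′SL, 1150 in LPS, and 1128 in LPS + 3′SL. In the second run they were 41.26, 46.94, 86.01, and 53.74 CPM in the same order. In the third run they were 135.9, 120.5, 195.2, and 142.6 CPM. No library of one run overlapped the range of another in this sum. The mean sum of the first run was 18.94 times that of the second and 7.267 times that of the third, and the third was 2.607 times the second. As a share of all reads on genes, the 10 genes took 0.101% to 0.132% in the first run, 0.00479% to 0.00708% in the second, and 0.0103% to 0.0165% in the third. These differences chose the genes, so no test is attached to them.

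**Figure D1:**
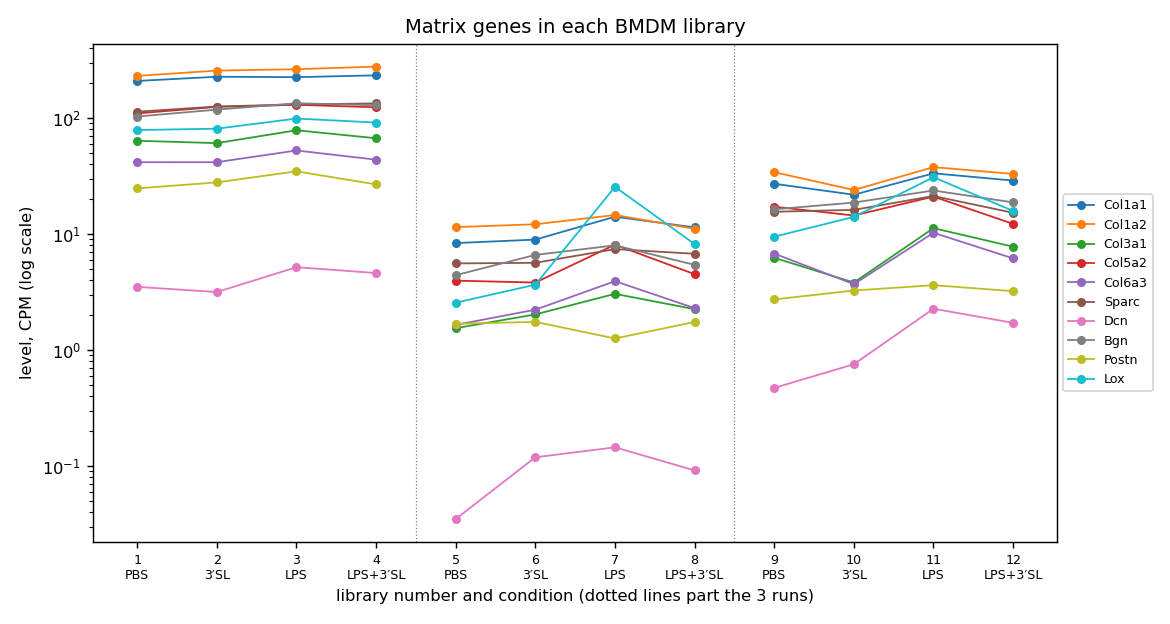
Level of each of the 10 matrix genes in CPM (log axis) in each of the 12 libraries, which are ordered by library number and marked with their condition, with dotted lines between the 3 runs and 1 point per library. Libraries 1 to 4 sit above the others for every gene, and *Lox* in library 7 (LPS, 25.47 CPM) leaves the course of the other genes.

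*Col1a1*, the α1 chain of type I collagen, was at 208.2 CPM in PBS, 226.3 in 3′SL, 224.4 in LPS, and 232.7 in LPS + 3′SL of the first run. In the same order it was at 8.349, 8.951, 14.09, and 11.4 CPM in the second run and at 27.08, 21.79, 33.33, and 28.84 CPM in the third. All 4 libraries of each run thus lay apart from those of the other runs, and the conditions overlapped fully, with each spanning the range from the second to the first run. *Col1a2*, which supplies the α2 chain of the same molecule, kept to 230.2 to 276.7 CPM in the first run, 11.08 to 14.58 in the second, and 23.94 to 37.69 in the third. The mean levels in the first run were 20.8 times those of the second for both type I chains, and 8.03 times (*Col1a1*) and 7.97 times (*Col1a2*) those of the third. The 2 genes whose products combine in type I collagen thus changed between runs by nearly the same factor. This was not particular to them, since *Sparc* came close with ratios of 19.8 and 7.37.

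*Col3a1*, the chain of type III collagen, which mixes with type I in elastic tissue, was at 63.57, 60.65, 78.28, and 66.82 CPM in the first run, again from PBS to the combination. It was at 1.544, 2.029, 3.051, and 2.253 CPM in the second run and at 6.24, 3.817, 11.23, and 7.773 CPM in the third. Its ratio of the first to the second run, 30.3, was the largest among the 5 collagen genes. *Col5a2*, a type V chain that controls fibril width, was at 109.4 to 129.7, 3.819 to 8.088, and 12.22 to 20.99 CPM in the 3 runs. *Col6a3*, a chain of the beaded type VI collagen around cells, was at 41.52, 41.56, 52.4, and 43.68 CPM in the first run, at 1.649, 2.228, 3.923, and 2.299 in the second, and at 6.78, 3.698, 10.25, and 6.165 in the third. The LPS library of the second run (3.923 CPM) lay just above the 3′SL library of the third (3.698 CPM), so *Col6a3* was 1 of the 2 genes whose levels in the second and the third run overlapped.

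*Bgn* (biglycan) and *Dcn* (decorin) are small leucine-rich proteoglycans of the same family, but *Dcn* was far lower. *Bgn* spanned 102.8 to 133.7 CPM in the first run, 4.42 to 7.991 in the second, and 16.32 to 23.7 in the third. *Dcn* was at 3.503, 3.163, 5.176, and 4.61 CPM in the first run, from 122, 85, 106, and 95 reads, and at 0.4722, 0.7554, 2.271, and 1.716 CPM in the third, from 14, 19, 37, and 32 reads. In the second run *Dcn* had 1, 3, 3, and 2 reads. Summed by run, its ratio of the first to the second was 42.4, with an exact 95% Poisson interval of 22.1 to 93.3 that covers counting error only. The corresponding ratio of the third to the second run was 12.1 (6.14 to 27.3), whereas the other 9 genes ran at 1.76 to 3.27 times the second. This ratio rested on few reads in the second run and on the LPS and LPS + 3′SL libraries of the third. In PBS, *Dcn* took 0.359% of the reads on the 10 genes in the first run, 0.085% in the second, and 0.347% in the third. In the third run its share was 1.16% in LPS and 1.2% in LPS + 3′SL.

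*Sparc*, a collagen-binding glycoprotein made by matrix-producing cells, stayed within 113.1 to 133.3 CPM in the first run, 5.578 to 7.41 in the second, and 15.23 to 21.24 in the third. *Postn* (periostin), a matricellular protein of periosteum and healing tissue, was at 24.72, 27.83, 34.67, and 26.74 CPM in the first run. It was at 1.684, 1.75, 1.259, and 1.747 CPM in the second run and at 2.732, 3.26, 3.622, and 3.217 CPM in the third. The LPS library was thus the highest of its run in the first and in the third run, and the lowest in the second. *Lox*, the lysyl oxidase that crosslinks collagen, was at 78.59, 80.78, 98.74, and 91.23 CPM in the first run, at 2.561, 3.66, 25.47, and 8.183 in the second, and at 9.478, 14.04, 30.82, and 15.81 in the third. The second and the third run overlapped, because the LPS library of the second run stood above 3 of the 4 libraries of the third.

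Over the 10 genes, the ratio of the first to the second run ranged from 8.76 (*Lox*) to 42 (*Dcn*), with a median of 20.3. Over all tested genes the median of this ratio was 0.967. For all 10, each library of the first run was above each of the other 8, which held for 3.57% of all tested genes. For 8 of the 10, the exceptions being *Col6a3* and *Lox*, the first run was above the third and the third above the second with no overlap, which held for 0.685% of all tested genes. These counts use the values that selected the genes, and nothing is read from them. In bulk libraries of this kind, more stromal cells and more RNA of these genes per cell cannot be told apart.

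The order of the genes by level per kilobase of exon changed little between runs. In the first run *Col1a1* (34 ± 1.59 CPM per kilobase, SD, n = 4 libraries) and *Sparc* (33.2 ± 2.36) led, with overlapping ranges. They were followed by *Col1a2* (20.6 ± 1.57), *Bgn* (19.8 ± 2.24), and *Lox* (18.3 ± 1.97), which overlapped with their neighbors. *Col5a2* (12.7 ± 0.903), *Col3a1* (6.86 ± 0.787), and then *Col6a3* (3.74 ± 0.432) and *Postn* (3.27 ± 0.496) came next, the last 2 overlapping, and *Dcn* (0.705 ± 0.161) was lowest. The 5 lowest genes kept these positions in all 3 runs, where *Col5a2* was sixth in each. In the second run *Lox* had the highest mean (2.09 ± 2.22 CPM per kilobase), which rested on its LPS library, since its range of 0.536 to 5.33 took in those of *Sparc* and *Col1a1*. In the third run *Sparc* (4.5 ± 0.746), *Col1a1* (4.23 ± 0.727), and *Lox* (3.67 ± 1.94) led with overlapping ranges.

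The make-up of the reads on the 10 genes showed which gene moved apart from the rest. *Col1a1* took 19.5% to 21.3% of these reads in the first run, 16.4% to 21.2% in the second, and 17.1% to 20.2% in the third. *Lox* took 7.59% to 8.58% in the first run under every condition. In the second run its share was 6.21% in PBS, 7.8% in 3′SL, 29.6% in LPS, and 15.2% in LPS + 3′SL, and in the third it was 6.97%, 11.6%, 15.8%, and 11.1%. In PBS the share of *Lox* was thus similar in all 3 runs, and it was highest in the LPS library of each run. *Col3a1* took a smaller share in the second run (3.55% to 4.32%) than in the first (5.7% to 6.8%).

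**Figure D2:**
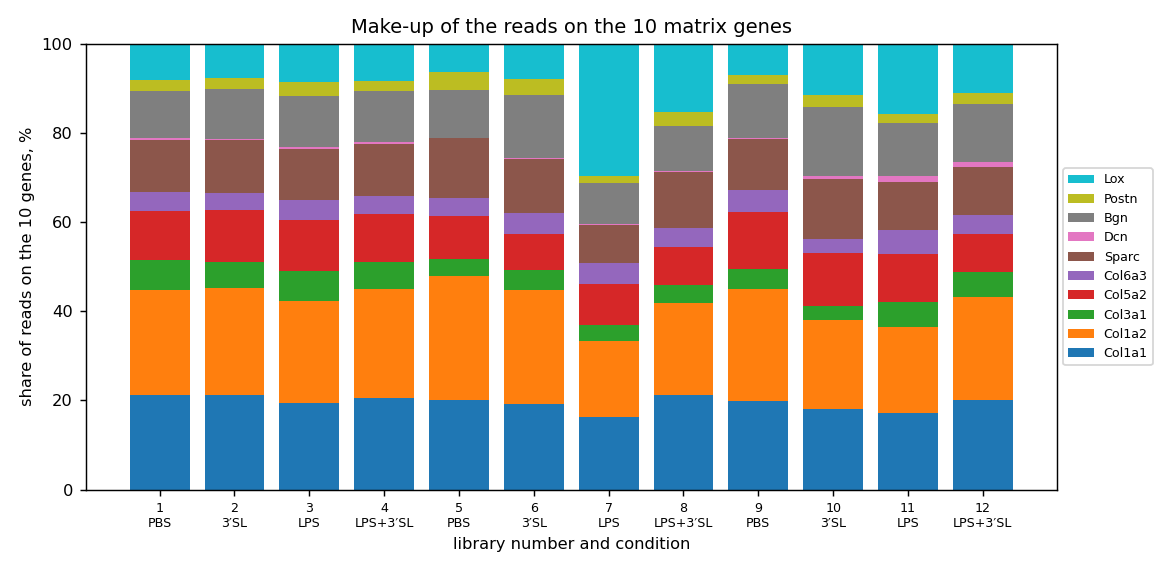
Share of the reads on the 10 matrix genes that fell on each gene (stacked bars, percent, summing to 100) in each of the 12 libraries, ordered by library number and marked with the condition. The 4 bars of the first run are alike, and *Lox* takes 29.6% in library 7 (LPS) and 15.8% in library 11 (LPS).

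The 10 genes rose and fell together over the 12 libraries. Among their 45 pairs, Pearson's r of log2 CPM ranged from 0.863 to 0.997 (median 0.985), a range set by the runs, which all points share. After the mean of each run had been subtracted, r ranged from −0.352 to 0.955 (median 0.669). *Postn* then had a median r of −0.136 with the other 9 genes, whereas that of *Col1a1* was 0.779 and those of *Col6a3* and *Lox* 0.745. *Postn* had only 26 to 48 reads per library in the second run and 59 to 82 in the third. The part of counting error in its r was not tested. The spread left within runs was smallest for *Sparc* (SD of 0.165 on the log2 scale), *Postn* (0.179), and *Col1a2* (0.183) and largest for *Dcn* (0.573) and *Lox* (0.847). These correlations are over libraries of 3 runs and carry no test.

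Among 9532 genes with a mean of at least 5 CPM, those with log2 levels most like the mean of the 10 genes over the 12 libraries were matrix genes in the main. They were *Hspg2*, which encodes the basement membrane proteoglycan perlecan (r = 0.9984), the collagen genes *Col6a1* (0.997) and *Col4a1* (0.9957), *Nedd4*, a ubiquitin ligase (0.9959), *Cyp1b1*, a cytochrome P450 (0.9934), *Fstl1* (0.9933), the fibulin gene *Fbln2* (0.9929), and *Tagln*, a smooth muscle actin-binding protein (0.9917). *Hspg2* had means of 47.66, 2.592, and 7.215 CPM in the 3 runs and *Nedd4* 54.43, 3.489, and 9.561 CPM. There were 41 genes with r above 0.95 and 53 above 0.9. The lowest r were those of *Gdf3* (−0.8412), *Cyb5d2* (−0.8185), *Zfp35* (−0.7823), and *Mtrex* (−0.7661), with *Gdf3* at 9.111, 14.75, and 14.06 CPM and *Mtrex* at 57.29, 63.94, and 59.91 CPM in the 3 runs.

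Lists of related genes were read in the same way, without a test. A gene is counted below as highest in the first run when its 4 libraries of that run were above all others. This held for 3.57% of all tested genes. The full order, with the third run also above the second without overlap, held for 0.685%. Of 17 other collagen genes tested, 11 had the 4 libraries of the first run above all others, and 5 also had the third run above the second without overlap. *Col12a1* (68.44, 2.999, and 9.148 CPM in the 3 runs) and *Col4a1* (52.26, 3.03, and 9.072 CPM) did as the 10 genes, whereas *Col18a1* (60.28, 61.58, and 105 CPM) did not. Of 22 other matrix genes, 17 were highest in the first run, among them *Fn1*, the fibronectin gene (463.2, 111.5, and 145 CPM), but not *Vcan*, the versican gene (73.02, 78.72, and 205.4 CPM). Of the 4 relatives of *Lox*, *Loxl1* (14.75, 0.5267, and 2.177 CPM), *Loxl2* (33.94, 1.755, and 3.951 CPM), and *Loxl3* (41.22, 8.722, and 10.34 CPM) had their highest mean in the first run, as did the little-expressed *Loxl4* (2.276, 0.3988, and 0.5613 CPM). Of the 19 genes for collagen processing, 8 were highest in the first run by this count. The broadly expressed *P4hb*, a subunit of prolyl hydroxylase, was not, since its runs overlapped, with means of 695.4, 644.3, and 683.4 CPM. In the TGF-β pathway, which drives collagen transcription in fibroblasts, 5 of 17 genes were highest in the first run, while *Tgfb1*, the ligand, was at 219.2, 221.2, and 263 CPM.

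Many markers of stromal cells, but not all, were highest in the first run, as the 10 genes were. All 4 libraries of the first run stood above the other 8 for 9 of 13 fibroblast markers tested, 6 of 8 smooth muscle and pericyte markers, and 4 of 8 marrow stroma markers. Among all tested genes this share was 3.57%. *Acta2*, smooth muscle actin, averaged 173.4, 10.24, and 27.83 CPM in the 3 runs, *Pdgfrb*, the PDGF receptor of fibroblasts and pericytes, 25.01, 4.051, and 6.388 CPM, *Prrx1*, a mesenchymal transcription factor, 15.62, 0.6864, and 2.555 CPM, and *Cxcl12*, a chemokine of marrow stroma, 11.85, 0.3958, and 1.585 CPM. The full order of the 10 genes, with the third run also above the second without overlap, was found for 1 of the 13 fibroblast markers, 4 of the 8 smooth muscle and pericyte markers, and 1 of the 8 marrow stroma markers. Among all tested genes it was found for 0.685%. The marrow stroma genes *Vcam1* (204.8, 232.7, and 239.8 CPM) and *Kitl* (26.15, 26.26, and 22.24 CPM) and the 1 osteoblast gene tested, *Runx2* (5.242, 2.899, and 5.798 CPM), were not highest in the first run. The smooth muscle and pericyte list summed to 269.3 to 295.5 CPM in the first run, 18.57 to 26.2 in the second, and 49.21 to 56.23 in the third. The fibroblast list summed to 278.7 to 312, 234.2 to 277.1, and 142 to 219.2 CPM, most of it *S100a4* (212.1, 240, and 155.6 CPM), which macrophages also express. Of the 18 fibroblast markers, *Dpt*, *Tcf21*, and *Meg3* had no read in any library, and the osteoblast genes *Bglap2*, *Dmp1*, *Mepe*, and *Sost*, the adipocyte genes *Adipoq*, *Plin1*, and *Lep*, and the elastin gene *Eln* had none either. None of the tested endothelial (4), macrophage (12), dendritic (4), neutrophil and granulocyte precursor (8), lymphocyte (1), or proliferation (8) genes had its 4 libraries of the first run above all others. The third run had the highest granulocyte precursor transcripts (*Ngp* at 51.94, 101.1, and 210.9 CPM) and the lowest *Mki67* (201.9, 221.1, and 61.78 CPM). The part of these cells in the levels of the 10 genes was not tested.

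**Figure D3:**
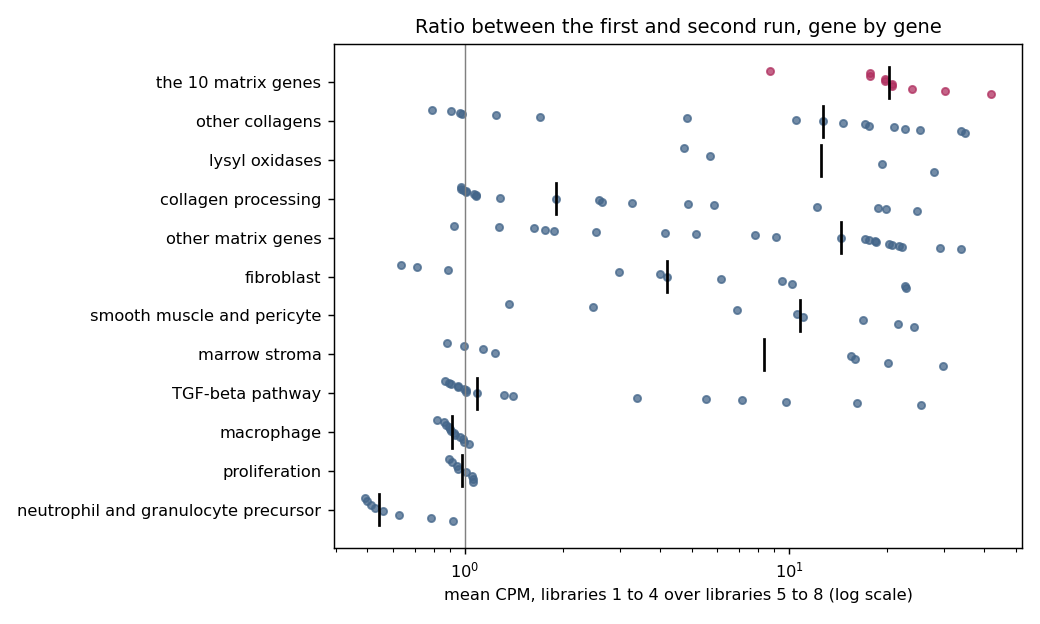
Ratio of the mean CPM of libraries 1 to 4 to that of libraries 5 to 8 (log axis) for each tested gene of the 10 matrix genes (red) and of 11 other lists (blue), with 1 point per gene and a black bar at the list's median. The 10 genes lie between 8.76 and 42, and the macrophage and proliferation genes lie around 1.

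The spread between runs left the comparisons of conditions with little precision. Within a condition, the coefficient of variation over the 3 libraries was 79% for *Lox* in LPS and 99.8% to 150% for every other gene and condition. As an example, *Col1a1* was at 81.22 ± 110 CPM in PBS, 85.68 ± 122 in 3′SL, 90.61 ± 116 in LPS, and 90.98 ± 123 in LPS + 3′SL (SD, n = 3 each). With edgeR's quasi-likelihood test over all 14308 genes and no term for the run, a gene was called when it differed at least 1.5-fold with a p, adjusted by Benjamini and Hochberg's method, under 0.05. No gene of the 10 was called for LPS against PBS, where 38.5% of all tested genes were. The same count of 0 was found for LPS + 3′SL against 3′SL (29.2% of all genes), for 3′SL against PBS (0% of all genes), for LPS + 3′SL against LPS (0%), and for the interaction (0%), which asks whether LPS acts differently with 3′SL present. At an unadjusted p under 0.05 the count was also 0 of 10 in each, against 53%, 44.7%, 10.1%, 6.95%, and 6.09% of all genes in the order just given, and DESeq2 without the run called none of the 10. The standard errors were 1.32 to 1.68 on the log2 scale for the 4 comparisons, larger than every estimate in them. P-values here measure the spread between these libraries, since the labels do not say which came from separate cultures.

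Each run holds every condition, so the run could be added to the model as a block. The labels do not name it as a batch, and the paragraphs that follow give its results beside those above. With the run as a block, LPS estimates were above those of PBS for all 10 genes, and their median log2 fold change was 0.513 beside −0.0603 for all tested genes. In the fit without the block the median was 0.393. Of the 10, 4 were called higher (*Col3a1*, *Col6a3*, *Dcn*, and *Lox*) and none lower, while 20.5% of all genes were called higher and 24% lower. At an unadjusted p under 0.05 there were 8 of the 10, against 63.3% of all genes. An adjusted p under 0.05 with no fold minimum was reached by 8 of the 10, all higher, against 28.2% of all genes higher. With DESeq2 and the block, 5 were called higher, against 21.8% of all genes, *Bgn* being the addition. Leaving out library 11 (LPS) reduced the 4 calls of edgeR to 1 (*Lox*), and leaving out library 5 (PBS) to 2 (*Dcn* and *Lox*).

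The size of these changes depended on how the libraries were scaled. LPS libraries had TMM factors of 0.70 to 0.88 and PBS libraries 1.21 to 1.30. When libraries were scaled by their total counts instead, the median of all genes moved to −0.714 with the block, and that of the 10 genes to −0.145. Of the 10 genes, 8 then had negative estimates, and only *Lox* (log2 fold change of 1.05, adjusted p = 0.0305 in edgeR) was called. Among all 14308 tested genes, 1698 were called higher and 7400 lower under this scaling. The 10 genes lay above the median of all genes under both scalings, and whether 8 of them had higher or lower estimates in LPS changed with the scaling. Both scalings give levels relative to the other counts of a library, so neither shows an absolute change.

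With the run as a block, *Lox* had the largest log2 fold change of the 10 genes for LPS against PBS (1.69), followed by *Dcn* (1.24). Without the block *Dcn* (0.91) was above *Lox* (0.77), and within the first and the third run the difference of *Dcn* was also the larger one. *Lox* went from 78.59 to 98.74 CPM in the first run, from 2.561 to 25.47 in the second, and from 9.478 to 30.82 in the third, from PBS to LPS. The LPS library was the highest of its run each time. On the log2 scale these were differences of 0.33, 3.31, and 1.70, so the fold change was smallest in the run with the most stromal transcripts and largest in the run with the fewest. In CPM they were differences of 20.2, 22.9, and 21.3, which were nearly equal in the 3 runs despite the unequal levels in PBS. In CPM from total counts, without TMM factors, the differences were −15.5, 17.8, and 10.1, and this near equality was absent. With the run as a block the log2 fold change of *Lox* was 1.69 ± 0.409 (SE, adjusted p = 0.0038 in edgeR), and it was called in every block fit that left out a library or a run. Without the block it was 0.77 ± 1.33 (adjusted p = 0.677).

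**Figure D4:**
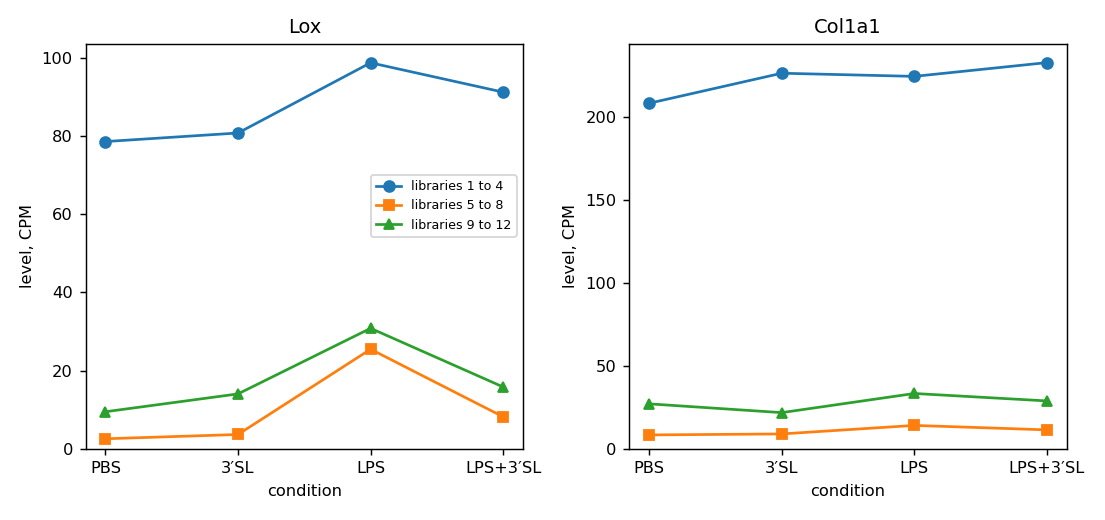
Level of *Lox* (left) and *Col1a1* (right) in CPM in the 4 conditions, with 1 point per library and lines joining the libraries of a run. *Lox* is highest in LPS in each run, at 98.74, 25.47, and 30.82 CPM, whereas *Col1a1* differs between runs far more than between conditions.

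Among the collagens, *Col3a1* (log2 fold change of 0.63 ± 0.197, SE, adjusted p = 0.016 in edgeR with the block) and *Col6a3* (0.63 ± 0.209, adjusted p = 0.0209) were called higher in LPS, just past the fold minimum of 1.5. Both were higher in LPS than in PBS in each run, by 0.30, 0.98, and 0.85 for *Col3a1* and 0.34, 1.25, and 0.60 for *Col6a3* on the log2 scale. Neither call held without the libraries of the second run (0.55 and 0.46) or without those of the third (0.44 and 0.56). Without the libraries of the first run *Col3a1* was called (0.90, adjusted p = 0.0398 in edgeR) and *Col6a3* was not (0.86, adjusted p = 0.0525). *Col1a1* (0.36 ± 0.13, adjusted p = 0.0312) and *Col5a2* (0.47 ± 0.176, adjusted p = 0.0375) passed the p threshold below the fold minimum, and *Col1a2* (0.22 ± 0.128, adjusted p = 0.165) did not.

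Of the collagen-binding genes, *Dcn* was called with a log2 fold change of 1.24 ± 0.379 (SE, adjusted p = 0.0146 in edgeR with the block). It went from 122 reads in PBS to 106 in LPS in the first run, a difference of 0.56 in log2 CPM, and from 14 to 37 reads in the third, a difference of 2.27. The second run had 1 and 3 reads and allows no ratio. Without the third run the estimate was 0.67 and not called. *Bgn* (0.56 ± 0.106, adjusted p = 0.000775) had the smallest adjusted p of the 10 genes and stayed just under the fold minimum, with differences of 0.38, 0.85, and 0.54 in the 3 runs. *Sparc* was at 0.35 ± 0.102 (adjusted p = 0.0122) and *Postn* at 0.28 ± 0.165 (adjusted p = 0.168). *Postn* was the only gene of the 10 with a lower level in LPS than in PBS in a run under TMM scaling, in the second (−0.42).

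**Figure D5:**
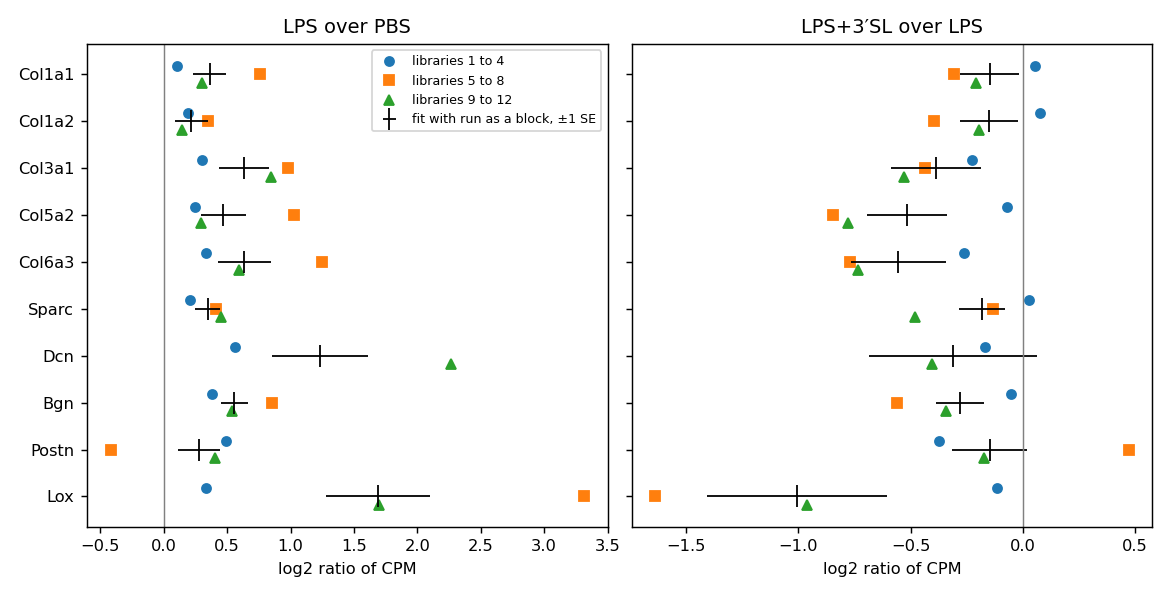
Log2 ratio of CPM between the libraries of each run (points, 1 per run) for LPS over PBS (left) and LPS + 3′SL over LPS (right), with the estimate of the fit that has the run as a block and its standard error (black). *Dcn* has no point for libraries 5 to 8, which held 1 to 3 of its reads, and *Lox* spans 0.33 to 3.31 on the left and −1.64 to −0.11 on the right.

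Without LPS, 3′SL left the 10 genes with small and mixed differences. With the block none was called for 3′SL against PBS, against 2.84% of all genes. Only *Bgn* had an unadjusted p under 0.05, against 24% of all genes. DESeq2 with the block also called none. The median was 0.0303, with 5 genes higher and 5 lower. *Bgn* was higher in 3′SL in each run, by 0.20, 0.58, and 0.19 on the log2 scale, with an estimate of 0.29 ± 0.105 (SE, adjusted p = 0.12 in edgeR). In the third run *Col3a1* and *Col6a3* were lower in 3′SL than in PBS (−0.71 and −0.87), and in the second they were higher (0.39 and 0.43). *Lox* was at 0.29 ± 0.397 (adjusted p = 0.708).

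When 3′SL was added to LPS, all 10 genes had lower estimates than with LPS alone with the block, and none passed the test. Without the block 8 were lower, and *Col1a1* (0.0051) and *Col1a2* (0.025) were slightly above 0. The median log2 fold change with the block was −0.297, beside −0.00981 for all genes, and −0.213 without it. None of the 10 was called with the block in edgeR or DESeq2, against 1.45% of all genes in edgeR. At an unadjusted p under 0.05 there were 4 (*Col5a2*, *Col6a3*, *Bgn*, and *Lox*), against 15.3% of all genes. *Lox* went from 98.74 to 91.23 CPM in the first run, from 25.47 to 8.183 in the second, and from 30.82 to 15.81 in the third. These were log2 differences of −0.11, −1.64, and −0.96, and the estimate was −1.005 ± 0.401 (SE, adjusted p = 0.255 in edgeR). *Col5a2* (−0.52 ± 0.179, adjusted p = 0.186), *Col6a3* (−0.55 ± 0.213, adjusted p = 0.233), and *Bgn* (−0.28 ± 0.107, adjusted p = 0.224) were also lower in each of the 3 runs. With total counts *Col3a1*, *Col6a3*, *Dcn*, and *Lox* kept the lower level in every run that allowed a ratio.

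The comparison of LPS + 3′SL with 3′SL, which shares its libraries with the comparisons above, gave no call among the 10 genes with the block in edgeR or DESeq2, against 35.8% of all genes in edgeR. None had an unadjusted p under 0.05, against 56.3% of all genes, while DESeq2 gave 1. The median was 0.197, with *Dcn* at 0.72 ± 0.386 and *Lox* at 0.39 ± 0.4 (SE). With total counts and the block the direction turned, with 9 of the 10 genes lower and a median of −0.281 beside −0.542 for all genes, and 5 had an unadjusted p under 0.05, against 71.8% of all genes. In the interaction all 10 estimates were negative with TMM factors (median −0.348 with the block) and 8 of 10 with total counts and the block (median −0.166), and none was called in edgeR or DESeq2, against 1.55% of all genes in edgeR. There were 2 at an unadjusted p under 0.05, against 17.3% of all genes, namely *Bgn* (−0.57 ± 0.15, SE, adjusted p = 0.081 in edgeR) and *Lox* (−1.29 ± 0.565, adjusted p = 0.267). With DESeq2 and the block *Bgn* passed the p threshold (−0.58 ± 0.184, SE, adjusted p = 0.0385) and stayed just under the fold minimum at 1.493-fold. The intervals are wide, since the standard errors of the 10 interaction terms ran from 0.145 to 0.565.

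The lists were also counted for LPS against PBS with the block, where 20.5% of all tested genes were called higher and 24% lower, and their counts are given as a description beside these shares. Of 17 other collagen genes 4 were called higher and 1 lower, and the 4 most abundant were *Col18a1* (log2 fold change of 0.72, adjusted p = 0.00221 in edgeR), *Col4a2* (1.79, adjusted p = 0.00214), *Col4a1* (0.45, adjusted p = 0.015), and *Col12a1* (0.35, adjusted p = 0.149). Of the 4 relatives of *Lox*, *Loxl4* alone was called (2.10, adjusted p = 0.00508), and *Loxl1* (0.44), *Loxl2* (0.24), and *Loxl3* (−0.40) were not. Of 19 collagen processing genes 5 were called higher, with *P4ha1*, a catalytic subunit of prolyl hydroxylase, at 1.49 (adjusted p = 1.08e-07) and *Plod3*, a lysyl hydroxylase, at 1.52 (adjusted p = 9.2e-07), both also called without the block. Of 22 other matrix genes 7 were called higher and 1 lower, led by *Vcan* at 5.86 (adjusted p = 7e-06).

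Among stromal markers, read against the same 20.5% higher and 24% lower of all genes, 4 of 13 fibroblast genes were called higher and 1 lower, with *Pdgfrb* at 1.66 (adjusted p = 0.0031 in edgeR with the block) and *Mmp2*, a gelatinase, at 1.55 (adjusted p = 0.00358), while *Prrx1* (0.40, adjusted p = 0.268) and *S100a4* (−0.32, adjusted p = 0.0247) were not called. No smooth muscle or pericyte gene of 8 was called higher and 1 was called lower, *Cspg4* (−1.69, adjusted p = 1.6e-05), with *Acta2* at 0.25 (adjusted p = 0.137) and *Tagln* at 0.36 (adjusted p = 0.0772). The marrow stroma list gave 3 higher and 1 lower of 8, with *Vcam1*, an adhesion molecule, at 1.95 and *Kitl*, stem cell factor, at −0.84. In the TGF-β pathway 3 of 17 were called higher, among them *Tgfbi* (0.82, adjusted p = 0.000126), and 3 lower. Of the 12 macrophage markers 5 were called higher and 1 lower. The values of these lists are under TMM scaling and were not recomputed with total counts. For LPS + 3′SL against LPS with the block, no gene of any of these lists was called, against 1.45% of all tested genes. Lists of this size would hold few calls or none at that share, so nothing is read from their absence.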

How the data were processed

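RNA-Seq libraries of BMDMs were compared, 3 per condition, with conditions taken from the labels. The authors deposited whole-number read counts per gene for each library, without normalization. Per the labels, the stranded polyA libraries were processed with FastQC, Trimmomatic, STAR, HTSeq, and DESeq2; versions, build, and strand setting are not given in the sources used here. Entries naming no gene (33.2% to 37.1% of each table's total) were left out. Gene identifiers were matched to GENCODE M21, which also gave exon lengths.

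Counts were fitted in R 4.3.3 with edgeR 4.0.16 (filterByExpr, TMM factors, quasi-likelihood test, 1 mean per condition over 12 libraries, Benjamini-Hochberg adjustment over 14308 genes). DESeq2 1.42.0, other scalings and filters, the run of 4 library numbers as a block, and libraries or runs left out were alternatives. The block with each library left out or with no fold minimum was added after seeing the data. The runs were set by the library numbers of the labels, and no label names them as a batch or pairing. The correlation of residuals (lowest within a run 0.449) was computed on these runs and did not define them. Correlations used log2 CPM with a prior count of 2. Standard errors of edgeR fits were derived as the absolute log2 fold change divided by the square root of the test's F statistic. Scripts were tested on simulated data. The members and lists were chosen with earlier results of these data known. Of each list, up to 4 genes with the highest mean CPM were named, and the 8 most and 4 least like the members. Genes with 3 reads or fewer in either library of a pair got no ratio, and counting intervals cover counting error only.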

Additional observations from a re-analysis of the deposited data

How the results depend on the processing

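None of the 10 genes was called in any comparison without the run as a block, whether the scaling, tool, filter, samples, or fold minimum was changed or a library or run was left out. For LPS against PBS the run as a block gave 4 calls, 5 with DESeq2 or with DESeq2 size factors, 5 without the libraries of run 1, 1 (*Lox*) with total counts, without those of run 2, or without those of run 3, and 8 with no fold minimum. Leaving out single libraries gave 1 to 6 calls, 1 (*Lox*) without LPS replicate 3 (library 11), 2 (*Dcn* and *Lox*) without PBS replicate 2 (library 5), and 6 without LPS replicate 1 (library 3), and *Lox* was called in every one of these fits. In the other comparisons the block gave no call under any alternative.

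Total counts in place of TMM factors turned the median log2 fold change of the 10 genes to −0.21 (−0.15 with the block) for LPS against PBS, −0.0659 with the block for 3′SL against PBS, and −0.32 (−0.28 with the block) for LPS + 3′SL against 3′SL. With the block and total counts, LPS against PBS was at −0.30 for *Col1a1*, −0.44 for *Col1a2*, −0.0187 for *Col3a1*, −0.19 for *Col5a2*, −0.0212 for *Col6a3*, −0.31 for *Sparc*, −0.10 for *Bgn*, and −0.37 for *Postn*, and LPS + 3′SL against 3′SL was at −0.0767 for *Lox*. TMM factors centre the bulk of the genes by construction, and total counts do not. Without the libraries of run 1, the median for 3′SL against PBS was −0.0819, and −0.044 with the block. For *Bgn* in LPS + 3′SL against 3′SL, near 0 with the block, the sign changed to 0.0266 in DESeq2, 0.0214 with DESeq2 size factors, 0.0736 without run 2, and 0.0653 without run 3, and it ranged from −0.12 to 0.0439 with libraries left out. The ratio of the summed level of the first to the third run was 8.717 with total counts, and the other run ratios moved by less than their spread.

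Without the block, leaving out 1 library moved the medians to between −1.62 and 2.40 for LPS against PBS, −2.15 and 2.25 for 3′SL against PBS, −2.27 and 1.77 for LPS + 3′SL against LPS, −2.12 and 2.32 for LPS + 3′SL against 3′SL, and −2.37 and 2.04 for the interaction. The extremes came from leaving out a library of run 1. With the block, the median for 3′SL against PBS ranged from −0.0726 to 0.0922. With the block, no gene of the 10 changed sign for LPS against PBS when a library was left out (0 of 120 values). A minimum of 10 counts in every library removed *Dcn*, and the interaction needs all 4 conditions, so no smaller fit was made for it. Of the 8 genes most like the 10 by Pearson's r, 3 were among the 8 by Spearman's rho. The labels give no replicate numbers, so the run block stands in for a paired analysis. Depth limited *Dcn* in run 2, with 1 to 3 reads per library.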
